A study of Mus musculus with 6 samples.

Results

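Messenger RNAs of the aminoacyl-tRNA synthetases were followed with and without hydrogen peroxide (H2O2) in primary embryonic fibroblasts of wild type and Wrn mutant mice. The members were all non-control probes whose description on the array names a tRNA synthetase, whatever their signal. The rule found 66 of the 41174 non-control probes, under 43 of the 29742 names on the array. By current gene symbols these are 20 cytosolic enzymes or enzyme subunits, 10 mitochondrial enzymes, 10 cDNA clones or transcript assemblies that match no gene symbol, and Dtd1, which the array lists as a histidyl-tRNA synthetase. Dtd1 removes D-amino acids from tRNA and is not a synthetase, so it was kept apart. Each gene is represented by the probe with the highest mean log2 intensity over the 6 arrays.

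Each synthetase joins 1 amino acid to the tRNAs that carry its anticodons, using ATP, and so supplies the ribosome with charged tRNA. The cytosol and the mitochondrion have separate sets, nearly all encoded by different nuclear genes, and a group of the cytosolic enzymes is held with scaffold proteins in the multisynthetase complex. Uncharged tRNA activates the kinase Gcn2 (Eif2ak4), which starts the integrated stress response; its transcription factor Atf4 is known to raise genes of amino acid synthesis and uptake and several cytosolic synthetases.

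Expression was measured with 2 arrays for each of 3 comparisons, on Agilent oligonucleotide arrays that hybridise a Cy5-labelled and a Cy3-labelled sample together. The cells came from embryos of day 15 by the labels. The mutant, called WS in the labels and WrnΔhel/Δhel in the study, lacks part of the helicase domain of Wrn, a RecQ helicase whose human counterpart is mutated in Werner syndrome; the truncated protein can still be made. The treated cells of both genotypes had 0.5 mM H2O2 for 1 hour and 24 hours in fresh medium before RNA was taken, and the untreated cells had no H2O2. The wild type arrays (replicates 1 and 2) and the mutant arrays (replicates 1 and 2) set treated RNA in Cy5 against untreated RNA of the same genotype in Cy3. The direct arrays (replicates 3 and 4) set untreated mutant against untreated wild type cells. No dyes were exchanged in any comparison, so a preference of a probe for a dye enters each of its ratios. The labels call the samples biological replicates but name no embryo or litter, so p-values measure the spread between these samples.

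On the direct arrays the labels put the wild type RNA in Cy5, whereas the study's list for this comparison runs as if the mutant RNA was in Cy5. All values of the direct arrays are given here as mutant over wild type, as in that list, and have the opposite sign if the labels are right. The untreated channels of the treatment arrays, where labels and methods give the same dyes, allow the same comparison within Cy3. Over 5576 probes called on the direct arrays, the sign was the same in that comparison for 90.6%. Over the 30 named members it was the same for 26, with spots marked as outliers kept. With those spots left out, 11 named members had a value within Cy3. Cy5 stood well above background at 41.5% to 69.2% of the non-control spots of an array and Cy3 at 75.8% to 90.0%. The scanner software marked as outliers between 0.400% and 22.6% of spots, most on replicate 2 of the wild type arrays, where 16 of the 30 named members were marked. The 2 arrays of a comparison correlated over all probes with r of 0.778 for wild type, 0.624 for the mutant and 0.541 for the direct arrays. The images of the 4 treatment arrays were extracted on the same date by the file headers, and each direct array on another, so the direct comparison and the date cannot be told apart. Of the 4 probes for Wrn, 1 dim probe was called lower in the mutant (log2 ratios of -0.77 and -1.04), and the labels do not say which probes lie in the deleted part. Of 10 fibroblast marker genes, 9 or 10 stood well above background in both dyes on every array.

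In wild type cells treated with H2O2, many cytosolic synthetases gave ratios above 0, but none of the 30 named members passed the test over all 6 arrays. The median log2 ratio of treated over untreated was 0.19 over the 18 cytosolic members with an unmarked spot (11 above 0 and 7 below), against -0.01 over all probes. It was -0.12 without replicate 1 of the wild type arrays, where 7 values were left, and 0.73 with ratios centred on each array's median without loess. In the limma test, with p-values adjusted for all probes after Benjamini and Hochberg, 0 of 18 were called at an adjusted p under 0.05, where 0.836% of all 40303 probes were. At an unadjusted p under 0.05, 4 cytosolic members were higher and 2 lower, while over all probes 10% were higher and 9.89% lower. The spread in this fit includes that of the direct arrays, which differ more from each other. When the 4 treatment arrays were fitted alone, Cars, Iars, Lars, Mars1 and Wars rose and Farsa, Qars and Vars fell among the cytosolic members. These are 5 higher and 3 lower of 18, against 11.7% and 11.8% of all probes in that fit. The calls of Iars, Lars and Farsa each rest on a single unmarked wild type array.

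**Figure D1:**
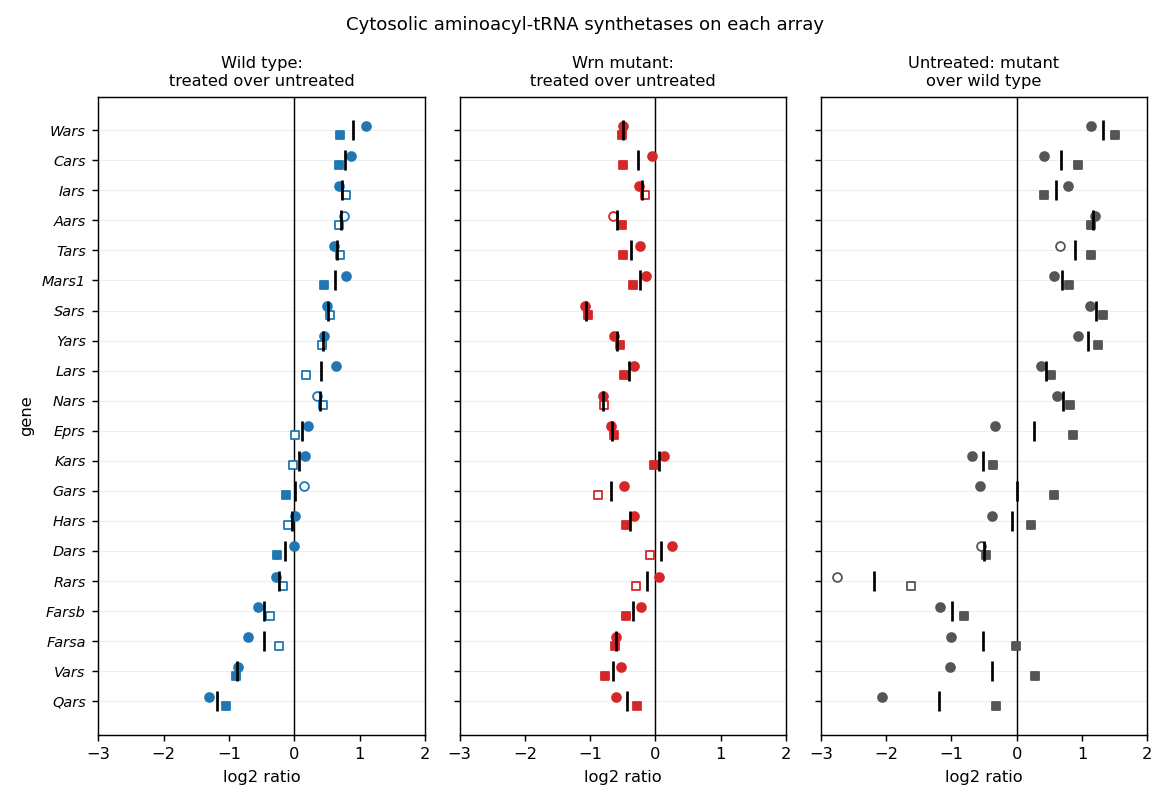
Log2 ratio of each of the 20 cytosolic synthetases (rows) on the wild type, mutant and direct arrays (panels); circles and squares are the 2 arrays of a comparison, open markers are spots that the scanner software marked as outliers, and black ticks are means. On the loess scale shown, 11 members lie above 0 on both wild type arrays and below 0 on both mutant arrays, and none does on a scale of median-centred ratios without loess.

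In treated Wrn mutant cells the cytosolic members lay mostly below 0. Their median log2 ratio of treated over untreated was -0.42, with 17 of 20 below 0, against 0.01 over all probes, although ratios centred on each array's median without loess gave 0.41. In the fit of 6 arrays 0 of 20 were called, and 0% of all 41052 probes were; at an unadjusted p under 0.05, 4 cytosolic members were lower and 0 higher, where 5.97% and 6.07% of all probes were. With the 4 treatment arrays alone, Eprs, Farsa, Nars, Sars, Vars, Wars and Yars fell, 7 of 20, and 0 rose, against 6.02% of all probes lower and 5.11% higher. The call of Nars rests on a single unmarked mutant array.

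The difference between the 2 responses, mutant minus wild type, had a median of -0.64 on the log2 scale over the 18 cytosolic members with both values, 12 of them below 0. None passed the adjusted test in the fit of 6 arrays, where 0% of all 40267 probes passed. At an unadjusted p under 0.05, 7 of 18 were lower in the mutant response and 0 higher, where 2.63% and 3.32% of all probes were. Over all 28 named members with a value the same count of 7 became 2 with median centring and 4 with the replicate number as a block. Leaving out a treatment array leaves a single array for its genotype, so no count is given. Without replicate 1 of the wild type arrays only 14 of the 28 kept a value. In the fit of the 4 treatment arrays, limma called the difference lower for Wars (adjusted p = 0.00895), Sars (adjusted p = 0.0137) and Cars (adjusted p = 0.0352), and higher for 0 of the 18, while 0.777% of all probes were lower and 1.16% higher. The wild type side of the Sars difference rests on a single unmarked array. With marked spots kept, the median difference was -0.80 with loess and -0.54 with median centring, where 15 and 12 of 20 members were below 0.

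The 3 comparisons were set side by side for each member, with marked spots kept so that every array gave a value; the treatment ratios share no array with the direct ratios. On the loess scale 11 of the 20 cytosolic members were above 0 on both wild type arrays and below 0 on both mutant arrays, and 10 of these were also above 0 on both direct arrays. Over all 38683 probes with 6 values, 5.54% had the first pattern and 3.05% the second. The 10 members are Aars, Cars, Iars, Lars, Mars1, Nars, Sars, Tars, Wars and Yars, and the other one is Eprs. The count was 10 with normexp background correction and with the scanner software's ratios, and 0 with median centring without loess, where the median of the cytosolic members was 0.73 in wild type and 0.36 in the mutant. That setting also moved the 5907 probes of like brightness (mean log2 intensity of 8 to 11) to medians of 0.46 in wild type and 0.76 in the mutant, where loess by its construction gave medians near 0. The signs of single treatment ratios thus depend on the loess curve, whereas the difference between the responses stayed negative in the median under each of these scalings.

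Wars, the tryptophanyl enzyme, whose gene is also known as a target of interferon, showed the pattern with all spots unmarked. It gave log2 ratios of 1.10 and 0.71 on the wild type arrays, -0.49 and -0.51 on the mutant arrays and 1.15 and 1.50 on the direct arrays. All values of a comparison lay on the same side of 0, as the pattern requires. The wild type and mutant responses differed by -1.41 ± 0.25 (SE), and untreated mutant cells had 2.50-fold the wild type level (log2 1.32 ± 0.18 SE, limma adjusted p = 0.00464). Its second probe, which was dimmer, gave 0.48 and 0.21, -0.21 and -0.59, and -0.13 and 0.33, so the direct ratio was not seen with it.

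Sars charges serine tRNAs and also the tRNA for selenocysteine. It gave 0.50 and 0.55 on the wild type arrays (the second marked), -1.09 and -1.04 on the mutant arrays and 1.12 and 1.32 on the direct arrays, through a single probe. The mutant values were the lowest of the cytosolic members on this comparison in the mean, at -1.06 ± 0.17 (SE). Untreated mutant cells had 2.33-fold the wild type level (log2 1.22 ± 0.17 SE, adjusted p = 0.00666), and the responses differed by -1.56 ± 0.29.

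Yars, the tyrosyl enzyme, also had a single probe. It gave 0.46 and 0.42 on the wild type arrays (the second marked), -0.63 and -0.54 on the mutant arrays and 0.94 and 1.25 on the direct arrays, with a direct log2 ratio of 1.10 ± 0.17 (SE, adjusted p = 0.0102). Aars, the alanyl enzyme, gave 0.77 and 0.68, both marked, on the wild type arrays, -0.65 (marked) and -0.52 on the mutant arrays and 1.20 and 1.14 on the direct arrays. Its direct log2 ratio was 1.17 ± 0.18 (SE, adjusted p = 0.0131), and with the marked spots left out no wild type value remained. A second, dimmer Aars probe gave -1.26 and -0.46, -1.48 and -1.59, and -1.36 and 0.57. The 2 Aars probes had the same sign on the mutant arrays and opposite signs on the wild type arrays and on replicate 3 of the direct arrays.

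Mars1 charges both initiator and elongator methionine tRNAs. It gave 0.79 and 0.45 on the wild type arrays, -0.14 and -0.35 on the mutant arrays and 0.57 and 0.81 on the direct arrays, none of them marked, with a direct log2 ratio of 0.69 ± 0.17 (SE, adjusted p = 0.0329). Tars, the threonyl enzyme, gave 0.62 and 0.70 (marked), -0.24 and -0.50, and 0.66 (marked) and 1.14. Its direct call rests on the single unmarked array (log2 1.14 ± 0.26 SE, adjusted p = 0.0397). Second, dimmer probes of both genes were below 0 on all 4 treatment arrays and on replicate 3 of the direct arrays, at -0.18, -0.30, -0.48, -0.60 and -0.62 for Mars1.

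Cars, Iars, Lars and Nars had the same signs without passing the direct test. Cars, the cysteinyl enzyme, gave 0.87 and 0.68 on the wild type arrays, -0.05 and -0.50 on the mutant arrays and 0.41 and 0.94 on the direct arrays (adjusted p = 0.0542). Nars, the asparaginyl enzyme, gave 0.35 and 0.44, both marked, then -0.80 and -0.79 (the second marked), and 0.61 and 0.82 on the direct arrays (adjusted p = 0.0509). These 2 direct values lay just outside the threshold. Iars, the isoleucyl enzyme, gave 0.68 and 0.79 (marked), -0.25 and -0.15 (marked), and 0.79 and 0.42. Lars, the leucyl enzyme, which also reports leucine to the growth kinase mTORC1, gave 0.64 and 0.18 (marked), -0.32 and -0.49, and 0.38 and 0.52. Since the 4 genes were grouped by these signs, their wild type and mutant arrays could not overlap.

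Eprs carries the glutamyl and the prolyl enzyme on a single chain and was read by 4 probes. Its brightest probe gave 0.22 and 0.01 (marked) on the wild type arrays, -0.68 and -0.64 on the mutant arrays, and -0.33 and 0.87 on the direct arrays, which lie on either side of 0. The next probe gave 0.97 and 0.66, -0.44 and -0.43, and 0.94 and 1.21, with a direct adjusted p of 0.00713. Another probe also passed the direct test (log2 0.96 ± 0.17 SE, adjusted p = 0.0138), so the call for this gene depends on the probe.

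A smaller group of cytosolic members was low in treated cells of both genotypes. Farsa and Farsb, the 2 subunits of the phenylalanyl enzyme, and Qars, the glutaminyl enzyme, were below 0 on all 6 arrays. Farsb gave -0.56 and -0.37 (marked) on the wild type arrays, -0.22 and -0.45 on the mutant arrays and -1.18 and -0.80 on the direct arrays, and its direct log2 ratio of -0.99 ± 0.18 (SE, adjusted p = 0.0164) was the only cytosolic call lower in the mutant. Farsa gave -0.70 and -0.23 (marked), -0.60 and -0.61, and -1.002 and -0.01. The subunits thus had like signs, while the direct arrays of Farsa lay far apart. Qars gave -1.31 and -1.05, -0.60 and -0.28, and -2.06 and -0.32, but its second probe, of nearly the same brightness, was above 0 on all 6 arrays at 0.39, 0.38, 0.51, 0.37, 0.20 and 0.05. Vars, the valyl enzyme, gave -0.86 and -0.89, -0.53 and -0.77, and -1.02 and 0.28.

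The remaining cytosolic members showed neither pattern. Kars, the lysyl enzyme, gave 0.17 and -0.02 (marked), 0.13 and -0.02, and -0.68 and -0.36. Dars, the aspartyl enzyme, gave -0.01 and -0.27, 0.26 and -0.08 (marked), and -0.54 (marked) and -0.47, and its second probe was called lower on the direct arrays (log2 -1.47 ± 0.20 SE, adjusted p = 0.00441). Both genes were below 0 on both direct arrays. Hars, the histidyl enzyme, gave 0.02 and -0.09 (marked), -0.33 and -0.45, and -0.38 and 0.22, and Gars, the glycyl enzyme, gave 0.15 (marked) and -0.12, -0.48 and -0.88 (marked), and -0.56 and 0.57. Rars, the arginyl enzyme, gave -0.28 and -0.18 (marked), 0.05 and -0.30 (marked), and -2.75 and -1.62 on the direct arrays, both marked. With marked spots left out Rars had no direct value.

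In untreated cells, 7 named members were called higher in the mutant and 1 lower, read in the direction given above. The 6 cytosolic members called higher of 19 with a value were Aars, Mars1, Sars, Tars, Wars and Yars, and the 1 called lower was Farsb; over all 41099 probes 10.2% were called higher and 9.76% lower. The cytosolic median was 0.45 (12 above 0 and 7 below) against 0.01 over all probes. With the sign turned as the labels' dyes give it, these are 6 lower and 1 higher with a median of -0.45. Sars, Wars and Yars were called in 14 of 15 settings each, Aars in 12, Farsb in 10 and Mars1 in 6. Tars was called in 6 of 14. These settings overlap, since 6 of them leave out 1 array each. At the study's thresholds, which are not among them, 1 of the 29 named members with a value was called. With the direct arrays fitted alone, 0 of the 29 were called. The fibroblast markers moved with the same comparison: 9 of 9 with a value were above 0, 6 of them called higher, with a median log2 ratio of 1.15, and in treated wild type cells 6 of 7 were below 0 with a median of -0.99. The summed fibroblast marker level was 15.6 to 17.6 on the log2 scale over all channels, and the macrophage markers, at 8.49 to 10.9, gave 0 calls. On the direct arrays 1 of 4 epithelial and 1 of 4 mast cell markers were called lower, 1 of 3 neural markers was called higher (and 1 in treated wild type cells), and 0 skeletal muscle or endothelial markers were called; the summed levels of these lists lay between 4.85 and 13.1. Whether these shifts have a part in the synthetase ratios was not tested.

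**Figure D2:**
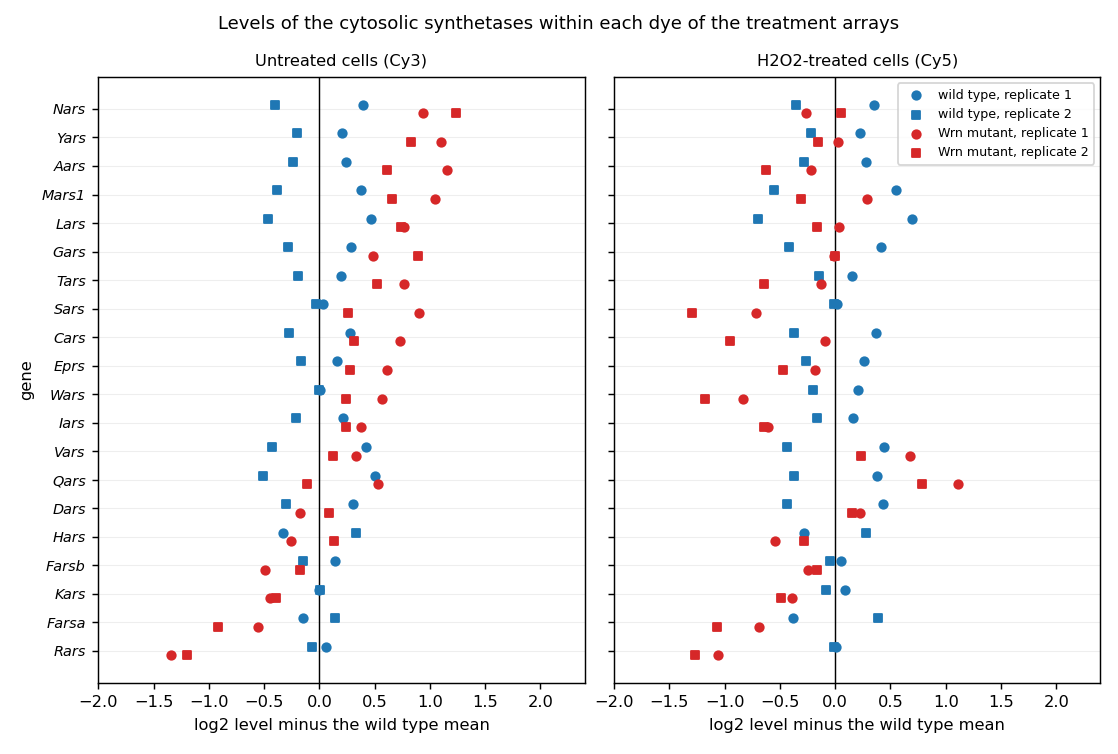
Log2 level of each of the 20 cytosolic synthetases minus its wild type mean in the same dye (horizontal axis) on the 4 treatment arrays, with untreated cells in Cy3 and treated cells in Cy5, after loess and Aquantile with marked spots kept; blue points are wild type, red points Wrn mutant, and circles and squares are replicates 1 and 2. In Cy3 both mutant values lie above both wild type values for 12 of the 20 cytosolic members, and in Cy5 for 1.

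The same comparison could be made within a dye on the 4 treatment arrays, which share the untreated channel with the treatment ratios. In untreated cells (Cy3) both mutant levels lay above both wild type levels for 12 of the 20 cytosolic members and below for 4, where 26% and 20.5% of all 41146 probes did. The 12 were the 10 members of the pattern with Eprs and Gars, and the 4 were Farsa, Farsb, Kars and Rars. After treatment (Cy5) both mutant levels lay above for 1 member, Qars, and below for 8, Farsa, Farsb, Hars, Iars, Kars, Rars, Sars and Wars, where 22.2% and 17% of all probes did. With marked spots kept, as in these counts, the median difference of the cytosolic members, mutant minus wild type, was 0.42 in untreated cells (14 above 0 and 6 below) and -0.36 in treated cells (3 above 0 and 17 below). With marked spots left out it was 0.18 and -0.17 over the 5 members that kept a value, and Wars then overlapped in untreated cells, at 6.67 and 7.06 in wild type and 7.22 and 6.87 in the mutant. With marked spots kept, the log2 levels of Nars in untreated cells were 10.05 and 9.25 in wild type and 10.6 and 10.9 in the mutant, and those of Sars after treatment were 10.05 and 10.03 in wild type and 9.33 and 8.74 in the mutant. No member passed the adjusted limma test in either channel, where 0.685% of all 29913 probes were higher and 0.445% lower in Cy3 and 1.55% were called in Cy5. In that test, with marked spots left out, 5 cytosolic and 6 mitochondrial members had a value on all 4 arrays.

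**Figure D3:**
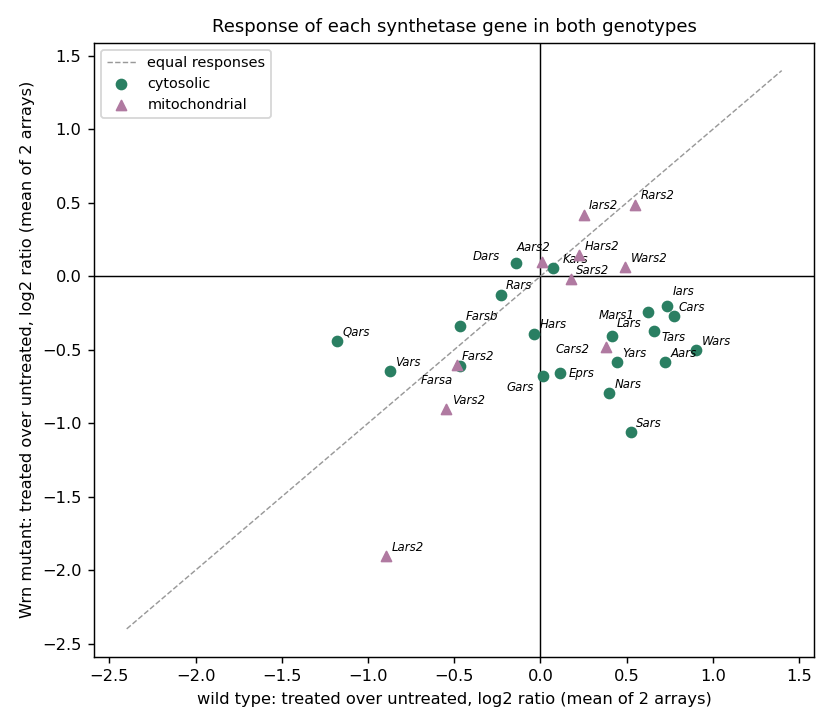
Mean log2 ratio of treated over untreated in wild type cells (horizontal axis) against the same in Wrn mutant cells (vertical axis) for each named synthetase, with marked spots kept; cytosolic and mitochondrial enzymes are drawn in different colours. The cytosolic members of the pattern lie right of and below 0 on this loess scale, and of the mitochondrial members only Cars2 does beyond 0.1 on both axes, while Lars2 lies lowest in the mutant.

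Grouped by structure, synthetases fall into class I and class II, which hold different folds of the catalytic domain. The 9 class I cytosolic members had medians of 0.62 in wild type, -0.41 in the mutant and, over 8, 0.64 on the direct arrays, and the 10 class II members had -0.05 over 8, -0.44 and -0.04. Eprs holds an enzyme of each class and was left out of both. The 8 members that belong to the multisynthetase complex (Dars, Eprs, Iars, Kars, Lars, Mars1, Qars and Rars) had medians of 0.19 in wild type and -0.25 in the mutant, with 5 of 8 below 0 in the mutant. The 12 other cytosolic members had medians of 0.24 and -0.51, with 12 of 12 below 0 in the mutant. On the direct arrays 5 of these 12 were called higher and 1 lower, and of the 7 complex enzymes with a value 1, Mars1, was called higher, where 10.2% of all probes were higher and 9.76% lower. The differences between these groups were not tested.

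Of the scaffold proteins of the complex, only Aimp1 was above 0 on both wild type arrays and below 0 on both mutant arrays, with small values. Aimp1 gave log2 ratios of 0.18 and 0.13 on the wild type arrays, -0.01 and -0.05 on the mutant arrays and -0.56 and -0.06 on the direct arrays. Aimp2 gave -0.86 (marked) and -1.03, -0.50 and -0.84, and -1.99 and -0.86, and was called lower in the untreated mutant (log2 -1.42 ± 0.29 SE, adjusted p = 0.0206). Eef1e1, also known as p18, gave 0.44 and 0.24, 0.35 and 0.11, and -0.23 and -1.04. All 3 were below 0 on both direct arrays.

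**Figure D4:**
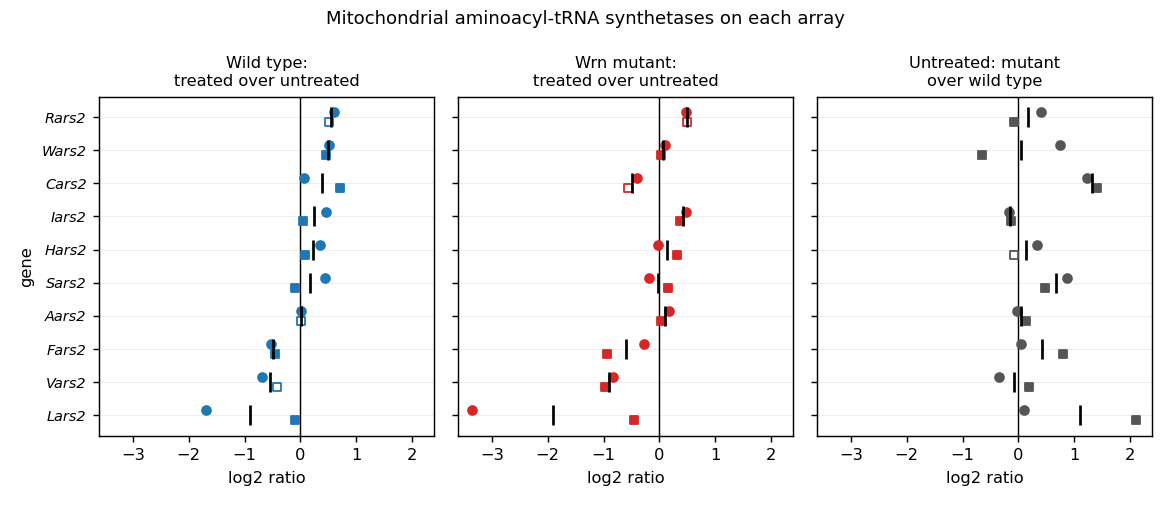
Log2 ratio of each of the 10 mitochondrial synthetases on the wild type, mutant and direct arrays, drawn as for the cytosolic enzymes. Cars2 alone lies above 0 on both wild type and both direct arrays and below 0 on both mutant arrays, and the 2 arrays of a comparison lie far apart for Lars2.

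The mitochondrial synthetases carry out the same reactions for the translation of the mitochondrial genome. Their median log2 ratio was 0.20 in treated wild type cells (7 above 0 and 3 below), 0.02 in treated mutant cells (5 and 5) and 0.25 on the direct arrays (8 and 2). The names on the array give 8 mitochondrial members, which take in Dtd1 and the cytosolic Vars and leave out Aars2, Cars2, Hars2 and Rars2. With these classes the medians were -0.16, -0.35 and 0.11, against 0.22, -0.39 and 0.39 for the cytosolic members. The difference between the responses had a median of -0.16, with 8 of 10 below 0 and 0 at an unadjusted p under 0.05. The cytosolic pattern was found in 1 of 10, Cars2, against 5.54% of all probes, and in 0 of 10 with median centring. With the 4 treatment arrays alone, Wars2 rose and Vars2 fell in wild type, which is about the share of all probes (11.7% higher and 11.8% lower). The wild type call of Vars2 rests on a single unmarked array. Fars2, Lars2 and Vars2 fell in the mutant, where 6.02% of all probes fell, and the difference was called for 0 of 10.

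Cars2, the mitochondrial cysteinyl enzyme, gave 0.06 and 0.71 on the wild type arrays, -0.41 and -0.56 (marked) on the mutant arrays, and 1.23 and 1.41 on the direct arrays. It was the 1 mitochondrial member called on the direct arrays (log2 1.32 ± 0.21 SE, adjusted p = 0.0103). Its second, dimmer probe went the other way there, at -1.32 and -0.96 (log2 -1.14 ± 0.17 SE, adjusted p = 0.00598), so the 2 probes give opposite calls and the direction for the gene is not settled. Lars2, the mitochondrial leucyl enzyme and the brightest member with a mean log2 intensity of 12.1, gave -1.70 and -0.10, -3.35 and -0.46, and 0.09 and 2.10, with no spot saturated. Its arrays differed by more than the mean in every comparison. Vars2 gave -0.68 and -0.41 (marked), -0.83 and -0.98, and -0.35 and 0.20, and Fars2 gave -0.52 and -0.45, -0.27 and -0.94, and 0.04 and 0.80. Both were below 0 on all 4 treatment arrays.

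Among the other mitochondrial members, Wars2 gave 0.52 and 0.46, 0.10 and 0.02, and 0.75 and -0.65, and Rars2 gave 0.59 and 0.51 (marked), 0.48 and 0.49 (marked), and 0.41 and -0.07. Both were above 0 in treated cells of both genotypes. Iars2 gave 0.46 and 0.04, 0.48 and 0.36, and -0.17 and -0.13, but stood well above background in Cy5 on 1 of the 6 arrays. Sars2 gave 0.44 and -0.09, -0.19 and 0.15, and 0.88 and 0.47. Hars2 and Aars2 stayed within 0.36 of 0 on all arrays: Aars2 gave 0.01 and 0.01 (marked), 0.17 and 0.03, and -0.03 and 0.13. Some further synthetases were not reached by the rule, since their descriptions on the array do not use the term. Of 8 such genes examined, 1 was called higher on the direct arrays, the cytosolic Tarsl2 (limma adjusted p = 0.0154). The mitochondrial Tars2 was the 1 called lower (adjusted p = 0.0366), and both are named because of these calls. This is about the share of all probes, 10.2% higher and 9.76% lower.

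Of the 10 clones, 8 were not well above background in Cy5 on at least 5 of the 6 arrays. The exceptions were AK049472, described as a leucyl enzyme, and TC960574, described as a lysyl enzyme. AK049472 gave 1.26 and 0.98 (marked) on the wild type arrays, -0.05 and -0.07 on the mutant arrays and 0.75 and 0.54 on the direct arrays, where it was called higher (log2 0.64 ± 0.17 SE, adjusted p = 0.0434). TC960574 was below 0 on all 6 arrays, at -0.98, -0.58 (marked), -0.74, -0.85, -1.46 and -0.18. Neither clone matched a gene symbol, so they were not counted with the named enzymes. Of the dim clones, AK036738 gave 0.08 and 0.02, -0.35 and -0.54, and 0.12 and 3.76, the last pair of like sign but far apart, and AK033273 gave 0.58 and 0.35, 0.49 and 0.67, and 0.27 and -0.32. AK077897 gave 0.12 and 0.07, 0.19 and 0.22, and 0.09 and 0.11, and AK033774 gave 0.29 and 0.04, 0.04 and 0.29, and 0.14 and 0.49. The last 2 were above 0 on all arrays. Dtd1 gave 0.28 and 0.15, 0.04 and -0.21, and 0.06 and 0.27, with no call.

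Many genes had probes that did not move together. Of the 16 named genes with several probes, at least 1 probe had the opposite sign from another in 10 for the wild type arrays, 4 for the mutant arrays and 11 for the direct arrays. Over all 39 cytosolic probes, 31 were below 0 on both mutant arrays and 3 were above 0 on both. On both wild type arrays 19 were above 0 and 15 below. The shares of all probes with these signs were not taken, so these counts cannot be set against them. The pattern was found in 16 cytosolic probes, from 11 genes, where 5.54% of all probes had it. With direct arrays also above 0 there were 13 probes from the same number of genes. Of 15 mitochondrial probes 1 had it. All counts of this paragraph are on the loess scale with marked spots kept. The negative mutant median of the genes was 0.36 with median centring.

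The named cytosolic members were set beside genes of neighbouring processes. In the list of 14 amino acid synthesis genes, the median log2 ratio was 0.95 in treated wild type, -0.56 in the treated mutant and 1.07 on the direct arrays. Psph, the last enzyme of serine synthesis (adjusted p = 0.0181), Cth of the transsulfuration pathway (adjusted p = 0.0181) and Mthfd2 of mitochondrial folate metabolism (adjusted p = 0.0474) rose in treated wild type cells in the fit of 6 arrays, 3 of 12 with a value against 0.836% of all probes, and 8 of 14 were called higher on the direct arrays against 10.2%. Asns, asparagine synthetase, gave 1.48 and 1.37 (marked) on the wild type arrays, -1.06 and -0.80 (marked) on the mutant arrays and 1.74 and 1.25 on the direct arrays. Psat1 gave 0.88 and 0.81, both marked, then -0.64 and -0.9996 (marked), and 0.35 and 0.40. Phgdh, the first enzyme of serine synthesis, gave 0.36 and 0.51, both marked, then -1.10 and -0.96 (marked), and -0.76 and 0.19. In the fit of the 4 treatment arrays, 8 of 12 were higher and 1 lower in wild type (11.7% and 11.8% of all probes), 7 of 14 lower and 0 higher in the mutant (6.02% and 5.11%), and the difference was lower for 8 of 12 and higher for 0 (0.777% and 1.16%).

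In the list of 15 integrated stress response genes the medians were 0.50, -0.11 and 0.71, with 2 of 13 called in treated wild type cells (0.836% of all probes) and 8 of 14 higher on the direct arrays (10.2%). In the fit of the 4 treatment arrays 7 of 13 were higher and 2 lower in wild type, 1 higher and 6 lower in the mutant, and the difference was higher for 1 and lower for 4, against the shares given for the amino acid synthesis genes. Trib3, a pseudokinase induced by Atf4, gave 3.42 and 2.71 on the wild type arrays, -2.38 and -1.58 (marked) on the mutant arrays and 4.90 and 5.24 (marked) on the direct arrays. Chac1, which degrades glutathione, gave 3.37 and 2.95, -1.03 and -0.50, and 2.64 and 2.07. Both rose in treated wild type cells in the fit of 6 arrays (adjusted p = 0.0364 for Trib3 and 0.0181 for Chac1). Ddit3 (CHOP) gave 1.57 (marked) and 1.33, -1.08 and -0.95, and 2.11 (marked) and 2.37. Atf4 itself gave -0.21 and -0.42, -0.78 and -1.01, and -0.78 and 0.63, and all but the last spot were marked. Other members of the list also lay below 0 in treated wild type cells. Sesn2, a stress-induced inhibitor of mTORC1, gave -3.24 (marked) and -1.47, -2.82 and -2.95 (marked), and -2.63 and 0.61, and its wild type value, from the single unmarked array, was called lower in the fit of the 4 treatment arrays (adjusted p = 0.00111). Ppp1r15a, which helps to reverse the phosphorylation of eIF2, gave -0.07 and -0.29, -0.82 and -1.01, and -1.07 and -0.04. Atf4 is controlled in large part by translation of its mRNA, which the arrays do not measure.

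**Figure D5:**
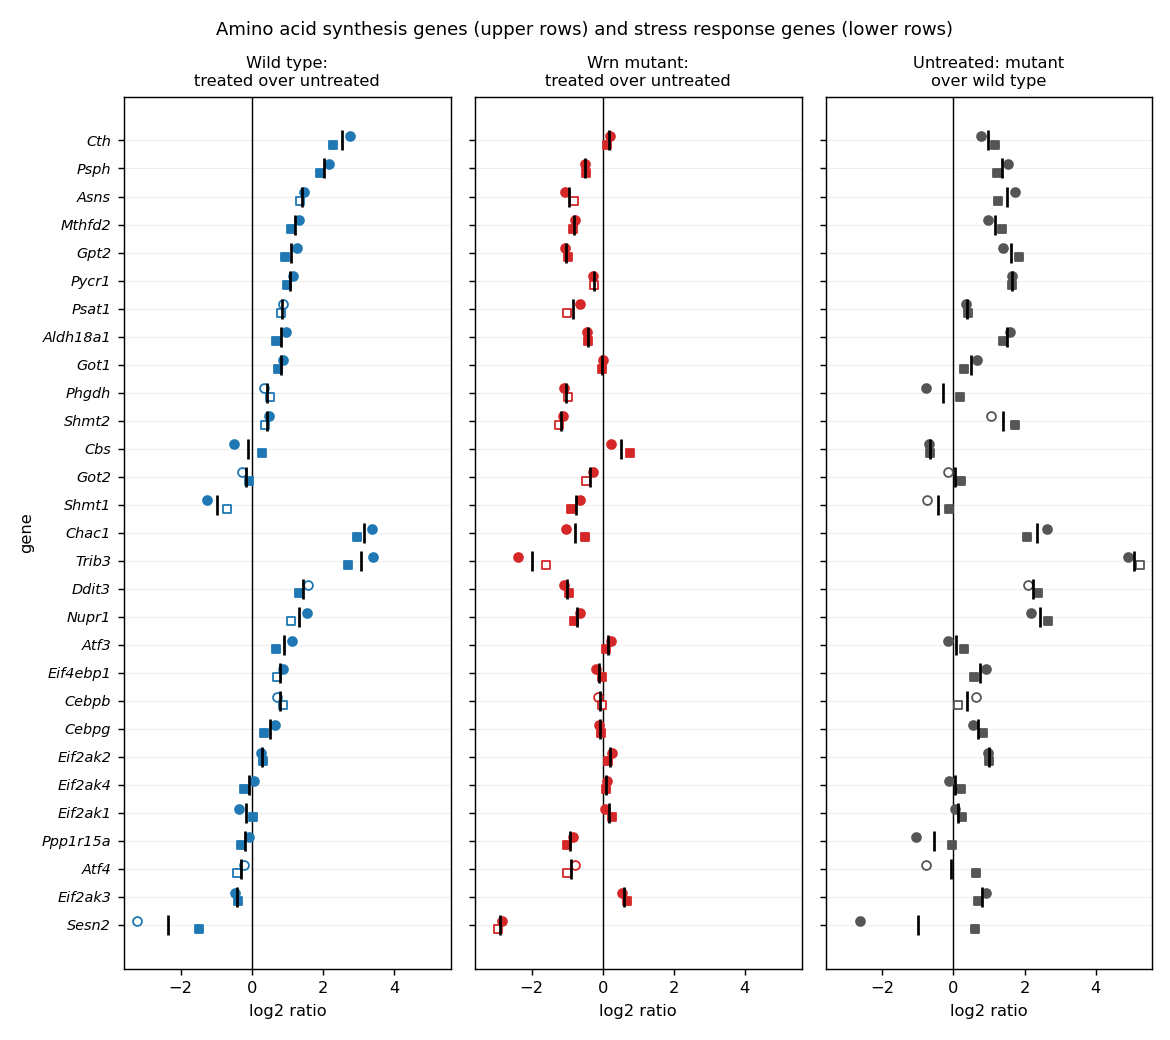
Log2 ratio of the amino acid synthesis genes (upper rows) and of the stress response genes (lower rows) on the wild type, mutant and direct arrays, drawn as for the synthetases. Trib3 and Chac1 reach 3.42 and 3.37 in treated wild type cells and lie below 0 in treated mutant cells on this loess scale, while Atf4 lies below 0 on all 4 treatment arrays.

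Among 13 genes of tRNA editing, repair and handling, the medians were 0.20, -0.10 and 0.40. Xpot, the nuclear export receptor for tRNA (adjusted p = 0.00803), the peptidyl-tRNA hydrolase Ptrh2 (adjusted p = 0.0117), Pstk, which acts on the selenocysteine tRNA charged by Sars (adjusted p = 0.0161), and Qrsl1 (adjusted p = 0.0166) were among the 5 of 13 called higher on the direct arrays, where 10.2% of all probes were. Sepsecs, the next enzyme of the selenocysteine route, was the 1 called lower (log2 -2.56 ± 0.24 SE, adjusted p = 0.00159), where 9.76% of all probes were. The 9 elongation factors of translation had medians of 0.07 in treated wild type and -0.02 in the treated mutant, over 8 with a value. The direct median was 0.03 over 9, and members lay far apart on both sides of 0. With marked spots kept the direct median was -0.22, with 7 of 9 below 0. In the fit of the 4 treatment arrays 1 of 8 was called higher and 2 lower in wild type, against 11.7% and 11.8% of all probes. The 1 higher was Eef1a1 (log2 1.52) and 1 of the lower was Eef2 (log2 -2.06), each from a single unmarked array. In the mutant 1 of 8 was called higher and 1 lower, against 5.11% and 6.02%.

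Promoter sequences are shown for the 4 members of the pattern whose 300-base RefSeq promoter (build GRCm38.p6, 250 bases before the start to 50 after, given 5′ to 3′ on the strand of the gene) holds the letters TGATGNAA, the form of the composite element bound by Atf4 with C/EBP proteins. The match is in capitals, and a match on the opposite strand appears as the reverse complement of these letters. Aars lies at chr8:111033592-111033891 (plus strand), Iars at chr13:49681880-49682179 (plus), Tars at chr15:11399609-11399908 (minus) and Yars at chr4:129189653-129189952 (plus).
Aars: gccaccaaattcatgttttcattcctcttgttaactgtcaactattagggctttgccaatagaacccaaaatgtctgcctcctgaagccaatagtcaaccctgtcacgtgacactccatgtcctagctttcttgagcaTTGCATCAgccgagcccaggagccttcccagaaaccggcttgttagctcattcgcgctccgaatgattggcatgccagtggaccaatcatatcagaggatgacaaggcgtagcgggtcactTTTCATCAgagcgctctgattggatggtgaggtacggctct
Iars: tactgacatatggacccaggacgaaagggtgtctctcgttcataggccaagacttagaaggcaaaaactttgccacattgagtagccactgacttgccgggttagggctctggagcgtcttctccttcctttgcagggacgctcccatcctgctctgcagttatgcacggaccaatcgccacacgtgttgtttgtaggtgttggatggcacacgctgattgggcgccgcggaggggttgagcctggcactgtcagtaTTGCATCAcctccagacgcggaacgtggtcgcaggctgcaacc
Tars: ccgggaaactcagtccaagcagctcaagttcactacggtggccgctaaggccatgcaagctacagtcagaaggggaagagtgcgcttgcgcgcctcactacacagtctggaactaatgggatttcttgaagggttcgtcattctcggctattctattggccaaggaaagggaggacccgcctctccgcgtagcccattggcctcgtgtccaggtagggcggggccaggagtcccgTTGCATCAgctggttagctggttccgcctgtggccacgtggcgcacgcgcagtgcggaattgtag
Yars: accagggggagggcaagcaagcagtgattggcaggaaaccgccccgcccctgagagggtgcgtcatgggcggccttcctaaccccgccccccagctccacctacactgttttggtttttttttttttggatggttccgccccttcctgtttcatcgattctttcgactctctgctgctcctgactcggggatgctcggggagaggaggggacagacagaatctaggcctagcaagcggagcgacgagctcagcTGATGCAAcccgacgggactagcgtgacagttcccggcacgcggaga
Of the 30 named members 22 had a promoter in the table. The motif was found in 5 of 13 cytosolic members (these 4 and Gars) and in 0 of 9 mitochondrial members, where 3.97% of all 32851 promoters held it. It was found in 4 of the 6 members of the pattern with an entry and in 1 of 7 other cytosolic members. Of the stress response list 4 of 14 genes held it (Atf3, Chac1, Nupr1 and Trib3) and of the amino acid synthesis list 3 of 13 (Asns, Got1 and Pycr1). In Aars the matches begin at -112 and 9 from the start, in Tars at -15, in Iars at 7 and in Yars at 3. The letters CCAAT, the core of the NF-Y element, were found in 7 of 13 cytosolic members and 37.4% of all promoters. CACGTG, an E-box, was found in 4 of 13 and 7.15%. These letters were split in a like way: CCAAT was in 5 of 6 members of the pattern and 2 of 7 others. CACGTG was in 3 of 6 and 1 of 7. The differences between these groups were not tested. A match is a description of the letters in this window, not a binding site.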

How the data were processed

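The authors scanned the arrays and deposited Agilent Feature Extraction output, which holds per spot and dye a mean intensity with its local background, quality flags, and a log10 ratio (red over green) made by that software. The deposited series table holds the authors' log2 ratios, background subtracted and loess normalised. The labels give total RNA and the paper cytoplasmic RNA.

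Here the local background median was subtracted from the mean intensity, ratios were normalised by loess within each array with limma 3.58.1 in R 4.3.3, and spots marked as non-uniform or population outliers in either dye were then left out ("marked"). Some values are given with marked spots kept, and are said to be. Spots of a probe were averaged. A single limma model (lmFit, eBayes) took in the 6 arrays, with 1 coefficient per comparison, with two-sided p-values adjusted by Benjamini-Hochberg over all non-control probes and calls at 0.05. Levels within a dye came from limma's separate-channel fit (Aquantile), with an intraspot correlation of 0.846 with marked spots kept, which gave the printed levels, and 0.778 with them left out, which gave the test. The number of arrays limits the precision. The fit of the 4 treatment arrays alone was added after seeing the data. The 6-array and separate-channel fits were tested on simulated data; the 4-array fit was not.

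Members were named through the RefSeq gene table of GRCm38.p6: 24 array names matched by accession and 10 matched no gene. Cytosolic and mitochondrial enzymes were told apart by current symbols, a departure from the planned use of the array's names, which list the cytosolic valyl enzyme as Vars2. Every member could be named; full values were given for called members, the 5 largest changes in each direction among members of the same sign on both arrays, and the complex partners, and the other members were added after their values were seen. The members and lists were chosen with earlier results of these data known. Same-numbered wild type and mutant arrays did not deviate together (r of -0.04 over 29913 probes), so the replicate numbers were not taken as pairs. Python 3.11.15, pandas 2.3.3, matplotlib 3.10.9 and the R package data.table (version 1.17.8) were also used. Some results of the gene lists are not reported here.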

Additional observations from a re-analysis of the deposited data

How the results depend on the processing

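Counts of called members depended most on which arrays gave the spread. Of the 30 named members, 28 had a value for treated wild type cells and for the difference. All 30 had a value for treated mutant cells and 29 for the direct comparison. For treated wild type cells 0 were called, but 3 with normexp background, 1 with probes of mean log2 intensity above 6, 10 with only the 4 treatment arrays and 14 with only the 2 arrays of the comparison, and 0 to 10 when an array was left out; for treated mutant cells 0 were called, but 10 with only the 4 treatment arrays or only the 2 arrays, and 0 to 10 when an array was left out; for the difference 0 were called, 3 with only the 4 treatment arrays and 0 to 3 when an array was left out. The higher counts came with a direct array left out, which removes the spread between the direct arrays from the fit. Calls over all probes moved as well. In treated wild type cells they were 337, then 2042 with normexp and 589 above the intensity of 6. They were 9485 with the 4 treatment arrays and 10688 with the 2 arrays. In treated mutant cells they were 0, then 4567 and 4968 in the same 2 settings. For the difference they were 0, then 782 with the 4 treatment arrays. For the direct comparison 8 were called, 3 with the scanner software's ratios, 1 at the study's thresholds, 0 with only the 2 direct arrays, 5 to 15 when an array was left out (15 without replicate 3 and 14 without replicate 4) and 8 with the sign turned, then 7 lower and 1 higher. Between untreated cells within Cy3, 0 of the 11 named members with a value were called, where 338 of all probes were.

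The cytosolic medians were 0.19, -0.42 and 0.45 for treated wild type, treated mutant and the direct arrays. With median centring without loess they became 0.73, 0.41 and 0.83; the direct median was 0.21 with the mean of all probes of a gene and -0.45 with the sign turned, and leaving out an array gave -0.12 to 0.22, -0.50 to -0.33 and 0.38 to 0.57, the wild type median being negative without replicate 1, where 7 values were left. The mitochondrial medians were 0.20, 0.02 and 0.25. Median centring gave 0.34, 0.18 and 0.37, and leaving out an array gave 0.040 to 0.21, -0.11 to 0.026 and 0.20 to 0.21. Classing by the names on the array, which counts Dtd1 and Vars as mitochondrial, gave -0.16, -0.35 and 0.11, an alternative added after seeing the data. Normexp gave 0.079 for wild type and 0.15 for the direct arrays, and the direct median was 0.15 with marked spots kept, 0.15 with the authors' table, 0.31 with the scanner software's ratios, 0.16 with the mean of all probes, 0.33 above the intensity of 6, 0.17 without Lars2 (added later) and -0.25 with the sign turned. The cause of each shift was not tested.

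The direct ratio of Wars2 ran from -0.65 to 0.75 when a direct array was left out, and was negative without replicate 3. With the replicate number as a block 0 members were called in wild type, in the mutant and for the difference, as without it. The date of image extraction could not be fitted apart from the groups. Spots of low Cy5 signal limited the clones, Iars2 and Fars2.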
